A study of Mus musculus with 162 samples.

Results

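Retinoids are the forms of vitamin A, and 9 genes that take up, store, bind, make, break down or sense them were followed here in mouse skin treated with MC903. The members were Lrat, Stra6, Crabp1, Crabp2, Dhrs9, Aldh1a3, Cyp26a1, Cyp26b1 and Rarb, 9 of the 46078 genes counted, and all 9 were found by matching Ensembl gene identifiers to GENCODE M21 symbols. They had been picked because their levels in treated and control skin were already known to differ, so the skin comparison is given for them as a description without a test. Tests are given only where the choice of members had no part, which is in the trigeminal ganglion (TG), the spinal cord (SC), control skin alone and the other genes of the pathway. The list of those other genes was also drawn up with earlier results of these data known, so its calls are not independent of them.

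MC903 is calcipotriol, a vitamin D analog, and repeated application to mouse skin is used as a model of atopic dermatitis. Male C57BL/6 mice aged 8–12 weeks received 0.2 mM MC903 in ethanol, or ethanol alone, once a day. Skin and the TG on the same side came from mice treated on the cheek, and thoracic SC came from mice treated on the rostral back. Wild-type mice without injection gave skin at day 1 (6 hours after the first treatment, 4 MC903 and 4 ethanol libraries), day 2 (3 and 2), day 5 (3 and 3) and day 8 (5 and 6). At day 8 there were also wild-type mice injected with PBS (2 and 3 libraries) or with aGr1, 250 µg a day of an antibody to Gr1 that depletes neutrophils (4 and 4), TSLPR KO mice, which carry a null allele of Crlf2 (3 and 2), and BLT1 KO mice, whose targeted gene is Ltb4r1 (3 and 3). TSLPR KO mice were sampled at day 12 as well (4 and 3). Both knockouts are germline, so every cell of the animal carries the allele, and their ethanol controls carry it too. The 9 wild-type day 12 skin libraries and the 9 of TG were left out by the rule that defined these comparisons, which left 61 skin libraries (31 MC903, 30 ethanol), 56 TG libraries (29 and 27) and 27 SC libraries (14 and 13). Labels do not say whether libraries of a group came from separate mice, so p-values measure the spread between libraries, which may be partly technical.

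Vitamin A reaches the skin as retinol bound to a carrier protein in blood, and cells can take it up through the membrane receptor encoded by Stra6. Inside the cell LRAT esterifies retinol for storage, or dehydrogenases oxidize it in a first step to retinal and in a second to retinoic acid, the active form. Retinoic acid is carried by the small binding proteins CRABP1 and CRABP2, acts on nuclear receptors such as RARB, and is degraded by the cytochromes CYP26A1 and CYP26B1. In epidermis this system is known for its control of keratinocyte differentiation and of the hair follicle, and Cyp26a1 and Rarb are textbook target genes of retinoic acid itself.

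Skin libraries held 17431296 to 67342879 counts on genes (median 28927563), TG libraries 15931871 to 62105901, and SC libraries 21595429 to 50591655. Levels are TMM-scaled counts per 1000000 counts of the library (cpm), set within each comparison, a log2 fold change is always MC903 minus ethanol with its standard error (SE), and a level of 3 counts was taken as the floor of detection, which covers counting error only. Cyp24a1, the vitamin D catabolic enzyme and a marker of MC903 exposure, stood at 1544 to 6377 cpm in the MC903 skin libraries and 0.270 to 31.1 cpm in the ethanol ones. Crlf2 was at 0.0665 to 0.284 cpm in TSLPR KO skin at day 8 and at 0.469 to 1.24 cpm in TSLPR KO skin at day 12, against 2.24 to 14.2 cpm in the other 7 comparisons. Ltb4r1 was still detected in BLT1 KO skin, at 9.75 to 15.3 cpm with MC903 and 2.33 to 3.67 cpm with ethanol. Both ranges lay below those of uninjected wild-type skin at day 8 (33.6 to 79.9 and 6.92 to 10.1 cpm), but the ethanol range overlapped that of aGr1 skin (3.28 to 5.64 cpm). Both also lay within the ranges of TSLPR KO skin at day 12 (9.63 to 16.1 cpm with MC903 and 1.86 to 6.54 cpm with ethanol). These levels were scaled within each comparison and not tested. Summed keratinocyte markers were between 3096 and 30805 cpm in every skin library. Other tissues varied strongly between libraries: the sum of 6 salivary gland markers ran from 9.28 to 401799 cpm and was over 1000 cpm in 22 of 61 skin libraries (8 MC903, 14 ethanol), and the sum of 9 hair follicle markers ran from 25 to 22530 cpm. In aGr1 skin every ethanol library was above every MC903 library in the salivary gland sum, by the ranges given below with Rbp4. The part of that tissue in the aGr1 differences of the members was not tested. Day 2 MC903 replicate 3 stood apart with a neuron marker sum of 2038 cpm and the lowest keratinocyte sum, and without it the day 2 log2 fold changes were 3.8 for Lrat, 2.89 for Crabp2, 2.32 for Cyp26b1, 5.70 for Cyp26a1, −2.0 for Stra6, −0.84 for Crabp1 and −1.11 for Aldh1a3. Neuron markers summed to 3266 to 10953 cpm in TG and 3586 to 4817 cpm in SC. In skin with such mixtures, fewer cells of a type and less RNA per cell cannot be told apart.

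**Figure D1:**
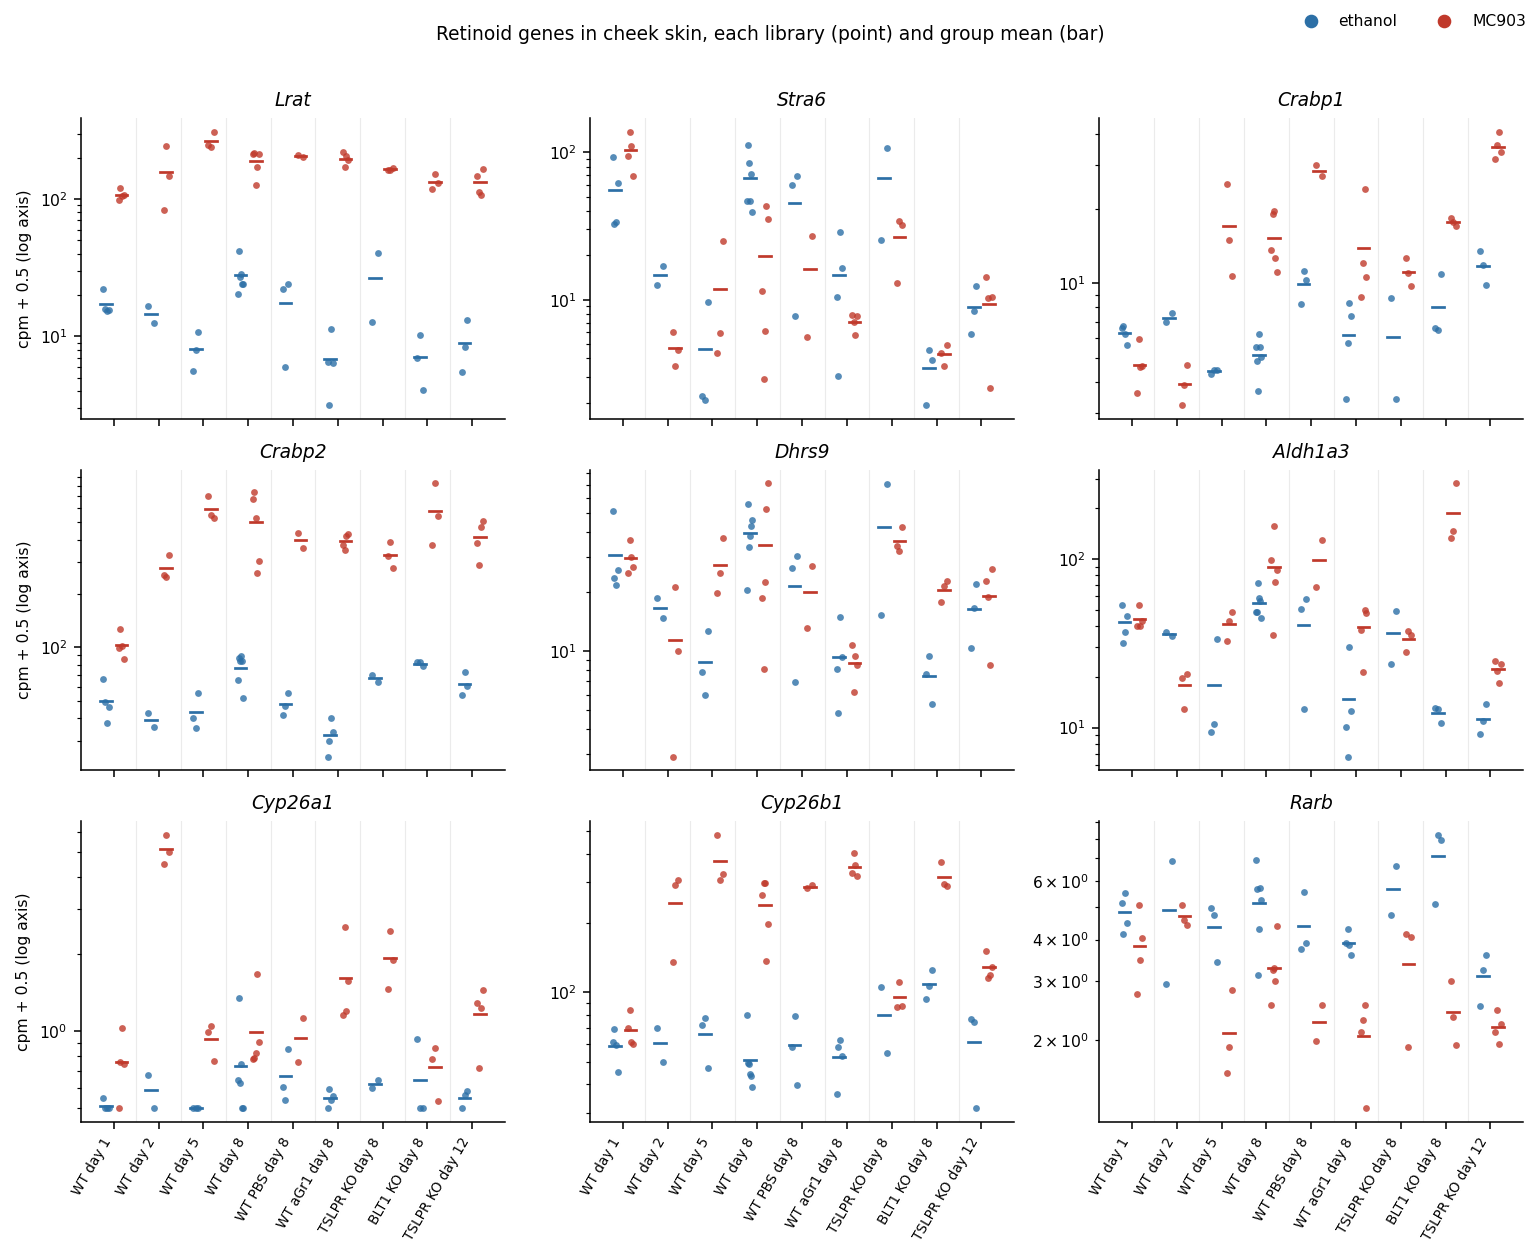
Level of each of the 9 members in each skin library, as cpm plus 0.5 on a log axis, by comparison; points are libraries, bars are group means, and the colours mark MC903 and ethanol. Lrat and Crabp2 are separated in all 9 comparisons, whereas Stra6 and Dhrs9 overlap in most.

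Lrat, the enzyme that stores retinol as retinyl ester, was separated in every comparison (chr3:82892579-82903973, minus strand, GRCm38). Its MC903 and ethanol groups did not overlap in any of the 9, and the log2 fold changes lay between 2.64 and 5.13. At day 1, 6 hours after a single application, the 4 MC903 libraries read 97.9, 120, 105 and 106 cpm against 21.6, 15.4, 14.8 and 15.1 cpm with ethanol (log2 fold change 2.68 ± 0.14, or 6.43-fold). Lrat was therefore already separated at the earliest time sampled, with the smallest SE of its 9 values. At day 2 it stood at 245, 147 and 82.5 cpm against 16.1 and 12.1 cpm (3.49 ± 0.56), and at day 5 at 248, 240 and 309 cpm against 5.07, 7.52 and 10.2 cpm (5.13 ± 0.31, or 35-fold). The day 8 MC903 libraries read 213, 127.1, 217, 171 and 212 cpm, and the 6 ethanol libraries had a lowest value of 19.7, a median of 25.2 and a highest value of 41.7 cpm (2.78 ± 0.20). All MC903 libraries of day 8 read below those of day 5 and all ethanol libraries above, though levels were scaled within each comparison and this was not tested.

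Lrat was also separated in the injected and knockout groups. With PBS the MC903 libraries read 208 and 202 cpm against 21.7, 5.52 and 23.5 cpm (log2 fold change 3.60 ± 0.57), and with aGr1 they read 220, 170, 206 and 193 cpm against 6.00, 2.66, 10.8 and 5.86 cpm (4.96 ± 0.38). Salivary gland RNA was higher in the aGr1 ethanol libraries, and per summed keratinocyte markers the aGr1 value was 4.10. In TSLPR KO skin at day 8 the values were 163, 162 and 167 cpm against 12.3 and 40.1 cpm (2.64 ± 0.44). That value rests on 2 unequal ethanol libraries, and it was 3.73 without ethanol replicate 2. BLT1 KO skin had 117.3, 152 and 131.3 cpm against 6.43, 9.81 and 3.59 cpm (4.33 ± 0.35), and TSLPR KO skin at day 12 had 146, 112.5, 107 and 166 cpm against 4.98, 7.81 and 12.8 cpm (3.96 ± 0.35). Every MC903 library in the 9 comparisons was above every ethanol library of its own comparison. Among the 30 ethanol libraries log2 Lrat followed the log2 sum of the hair follicle markers (r = 0.82, rho = 0.91, r = 0.86 without the 2 libraries farthest from the median sum), and among the 31 MC903 libraries it did not (r = −0.20). The part of hair follicle content in the ethanol levels, and so in the size of the difference, was not tested. Divided by the summed keratinocyte markers in place of the library total, the Lrat difference stayed positive in all 9 comparisons, between 1.74 and 4.42 on the log2 scale, a scaling chosen after seeing the data.

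Stra6, the retinol uptake receptor, did not share the pattern (chr9:58063788-58153996, plus strand). Its groups overlapped in 8 of 9 comparisons and were separated only at day 2, where MC903 skin read 3.07, 4.08 and 5.51 cpm against 12.2 and 16.4 cpm (log2 fold change −1.76 ± 0.41). The point estimate was positive at day 1 (0.90 ± 0.33) and day 5 (1.45 ± 0.88, or 2.79 without ethanol replicate 3) and negative at day 8 (−2.13 ± 0.62). Wild-type day 8 libraries came in 2 sets with different title styles, called cohorts A and B here, and the Stra6 value was −3.68 in cohort A alone and −0.44 in cohort B alone. In TSLPR KO skin at day 8 the value of −1.34 ± 0.55 became 0.05 without ethanol replicate 2.

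At day 5 the Stra6 libraries of 1 group were further apart than the group means. The day 5 MC903 libraries read 3.84, 5.48 and 24.4 cpm and the day 5 ethanol libraries 1.71, 1.58 and 9.19 cpm. In both sets the highest library was also the one with the highest hair follicle marker sum. Over the 61 skin libraries log2 Stra6 followed the log2 hair follicle sum with r = 0.82 and rho = 0.91, and r was 0.86 without the 2 libraries farthest from the median of that sum. It was 0.76 within MC903 and 0.87 within ethanol libraries. At day 8 the hair follicle sum itself was 656 to 9862 cpm with MC903 and 8025 to 22530 cpm with ethanol, and 8 of its 9 markers were called lower. The points share library composition and the part of hair follicle content in the Stra6 differences was not tested.

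**Figure D2:**
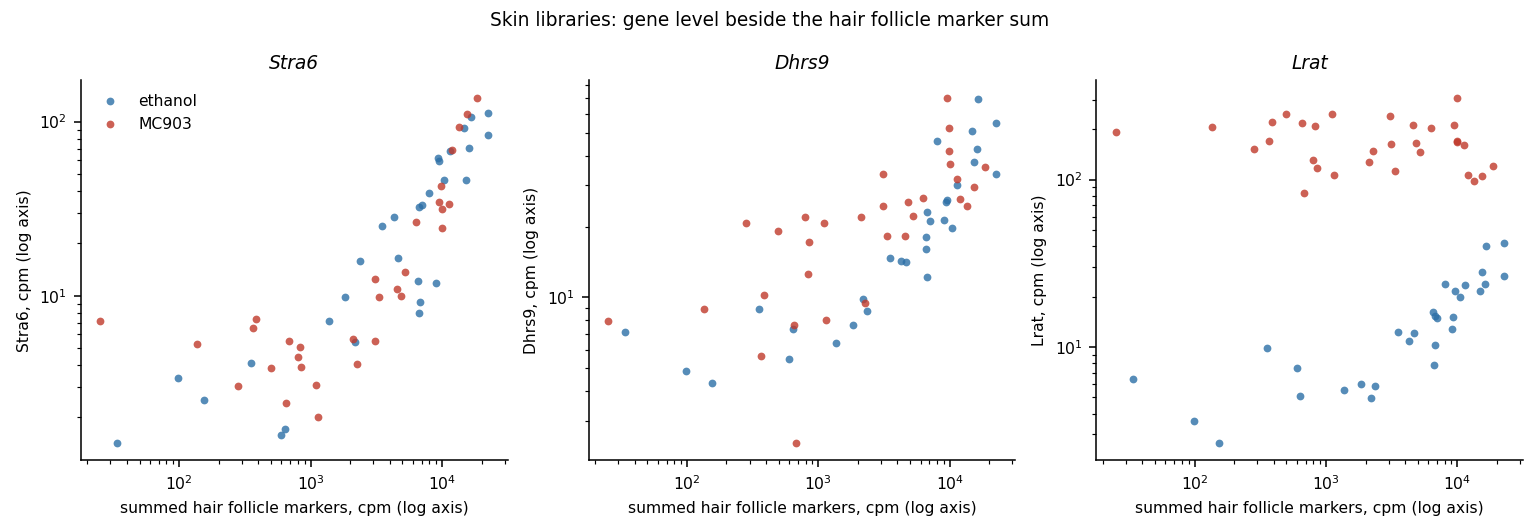
Level of Stra6, Dhrs9 and Lrat in each of the 61 skin libraries against the sum of the hair follicle markers, both in cpm on log axes; points are libraries, coloured by treatment. Stra6 and Dhrs9 follow the sum within both treatments, Lrat follows it within ethanol libraries (r = 0.82) and not within MC903 libraries (r = −0.20), and the MC903 points of Lrat lie above all ethanol points.

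Crabp2, which carries retinoic acid to its nuclear receptors, was the most abundant member and the other gene separated in all 9 comparisons (chr3:87948666-87953376, plus strand). Day 1 libraries read 98.9, 126.1, 101 and 85.7 cpm with MC903 and 65.8, 48.5, 37.3 and 45.7 cpm with ethanol (log2 fold change 1.06 ± 0.17, or 2.09-fold), and day 2 libraries 246, 327 and 253 cpm against 42.4 and 35.1 cpm (2.83 ± 0.35). At day 5 the values were 701, 551 and 532 cpm against 39.7, 34.8 and 54.6 cpm (3.79 ± 0.25, or 13.8-fold). Crabp2 thus had its smallest difference at 6 hours and its largest at day 5. Day 8 MC903 skin stood at 675, 526.3, 737, 262 and 303 cpm against an ethanol range of 51.2 to 88.9 cpm with a median of 83.3 (2.56 ± 0.24). The last 2 MC903 values belong to cohort B, in which the log2 fold change was 1.90, against 3.05 in cohort A.

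Crabp2 was also separated under both injections and in both knockouts. With PBS it read 436 and 360 cpm against 41.4, 46.1 and 55.2 cpm (log2 fold change 3.06 ± 0.22), and with aGr1 371, 349, 417 and 429 cpm against 23.9, 29.3, 39.8 and 33.1 cpm (3.63 ± 0.19). Salivary gland RNA was uneven in the aGr1 group, where the value per summed keratinocyte markers was 2.77. TSLPR KO skin at day 8 had 323, 390 and 278 cpm against 69.4 and 63.7 cpm (2.31 ± 0.27), and BLT1 KO skin 373, 830 and 540 cpm against 82, 81.9 and 77.5 cpm (2.85 ± 0.28). At day 12 TSLPR KO skin read 384, 289, 472 and 507 cpm against 53.4, 71.9 and 60.3 cpm (2.74 ± 0.25). The lowest MC903 library of these 5 groups, at 278 cpm, was more than 3 times the highest ethanol library. Per summed keratinocyte markers the Crabp2 difference remained positive in all 9 comparisons (1.29 to 3.24).

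Crabp1, the other retinoic acid binding protein, had differences of both signs (chr9:54764748-54773110, plus strand). Early after treatment it was no higher with MC903: the day 1 groups overlapped (log2 fold change −0.47 ± 0.18), and at day 2 the MC903 libraries, at 3.38, 4.19 and 2.72 cpm, were all below the ethanol libraries at 6.46 and 7.08 cpm (−0.98 ± 0.40). From day 5 on the order was the opposite in all 7 comparisons, with no overlap in any. Day 5 skin read 24.6, 14.5 and 10.2 cpm against 3.82, 3.98 and 3.96 cpm (2.07 ± 0.33), and day 8 MC903 skin 13.1, 19, 18.5, 12.1 and 10.6 cpm against an ethanol median of 4.77 cpm and a highest ethanol value of 5.74 cpm (1.64 ± 0.20). TSLPR KO skin at day 12 held the highest Crabp1 levels, 31.1, 35.4, 40.3 and 33.3 cpm against 12.9, 11.3 and 9.31 cpm (1.64 ± 0.17).

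The remaining Crabp1 differences were 1.57 ± 0.21 with PBS, 1.23 ± 0.38 with aGr1, 0.93 ± 0.40 in TSLPR KO and 1.20 ± 0.24 in BLT1 KO skin at day 8, all on the log2 scale. In the TSLPR KO group the value was 1.86 without ethanol replicate 1 and the margin was narrow, with a lowest MC903 library of 9.24 cpm and a highest ethanol library of 8.21 cpm. Log2 Crabp1 also followed the log2 keratinocyte sum, with r = 0.80 and rho = 0.75 within the 31 MC903 libraries (r = 0.75 without the 2 farthest) and r = 0.51 within the 30 ethanol libraries, and those markers were themselves higher with MC903 from day 5 on (12692 to 18461 cpm against 8400 to 9963 cpm at day 5). Their part in the Crabp1 difference was not tested.

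Dhrs9 encodes a short-chain dehydrogenase that oxidizes retinol to retinal (chr2:69380445-69404533, plus strand). Its groups overlapped in 7 of 9 comparisons. They were separated at day 5, with 19.1, 24.4 and 36.8 cpm against 7.33, 5.45 and 12.2 cpm (log2 fold change 1.69 ± 0.35), and in BLT1 KO skin, with 17.1, 20.8 and 22 cpm against 7.13, 8.89 and 4.85 cpm (1.52 ± 0.24). In both the MC903 libraries were higher. In the other 7 the estimates lay between −0.57 and 0.23 with SE of 0.26 to 0.79, so a difference of either sign could not be resolved, and the estimate for TSLPR KO skin at day 8 went from −0.24 to 1.28 without ethanol replicate 2. At day 8 the value was −1.18 in cohort A and 0.52 in cohort B. Dhrs9 followed the hair follicle sum as Stra6 did, with r = 0.76 and rho = 0.82 (r = 0.78 without the 2 farthest libraries), and the part of hair follicle content was not tested. In BLT1 KO skin that sum ran from 281 to 852 cpm with MC903 and from 33.7 to 354 cpm with ethanol, so its groups overlapped.

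Aldh1a3, which oxidizes retinal to retinoic acid, had its largest difference in BLT1 KO skin (chr7:66390890-66427517, minus strand). There the MC903 libraries read 133.2, 145 and 281 cpm and the ethanol libraries 12.6, 12.3 and 10.2 cpm (log2 fold change 3.99 ± 0.31, or 15.9-fold). The groups were also separated with PBS, at 67.6 and 128.7 cpm against 49.9, 12.3 and 57.8 cpm (1.30 ± 0.61), and in TSLPR KO skin at day 12, at 24.4, 21, 17.8 and 23.4 cpm against 8.60, 10.4 and 13.3 cpm (1.01 ± 0.19). Per summed keratinocyte markers the day 12 difference turned to −0.50. At day 2 the direction was the opposite, with 12.4, 20.3 and 19.3 cpm against 36.3 and 34.5 cpm (−1.03 ± 0.32).

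In the other 5 comparisons the Aldh1a3 groups overlapped. Wild-type day 8 skin read 97.5, 157, 35.1, 72.4 and 85.2 cpm with MC903 and 44.3 to 72 cpm with ethanol (log2 fold change 0.70 ± 0.28), where 1 of 5 MC903 libraries lay below all 6 ethanol ones. TSLPR KO skin at day 8 had 27.7, 36.7 and 35.1 cpm between the 2 ethanol libraries at 23.4 and 48.7 cpm (−0.12 ± 0.30, or 0.50 without ethanol replicate 2). With aGr1 the estimate was 1.43 ± 0.46, but 1 ethanol library, at 29.5 cpm, exceeded an MC903 library at 20.9 cpm. Within ethanol libraries Aldh1a3 followed the hair follicle sum (r = 0.78), and within MC903 libraries it did not (r = −0.01).

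Cyp26a1 encodes a cytochrome that hydroxylates and so inactivates retinoic acid (chr19:37697798-37701536, plus strand). It was the rarest member, at or under 3 counts in 22 of 30 ethanol skin libraries. Its highest levels were those of day 2, with 5.35, 4.52 and 4.01 cpm with MC903 against 0.175 and 0.00 cpm with ethanol (log2 fold change 5.62 ± 1.09). That fitted value rests on ethanol libraries of 5 and 0 counts, and it was 9.95 without ethanol replicate 1, against the library at 0. At day 1 the groups overlapped, and at day 5 the MC903 libraries were at 0.490, 0.548 and 0.266 cpm against 3 ethanol libraries at 0, which makes Cyp26a1 at least 3.8-fold higher than the mean of the ethanol libraries' floors. MC903 libraries over 4 cpm were thus seen at 1 of the 4 wild-type times sampled.

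Later groups held Cyp26a1 at low levels that were separated in 3 of 6 comparisons. With aGr1 it read 0.656, 2.05, 0.701 and 1.07 cpm against 0.00, 0.0949, 0.0403 and 0.0586 cpm, all at the floor, which is at least 7.92-fold higher. TSLPR KO skin at day 8 had 0.953, 1.95 and 1.39 cpm against 0.0998 and 0.142 cpm (log2 fold change 3.53 ± 0.65). At day 12 TSLPR KO skin had 0.781, 0.219, 0.726 and 0.942 cpm against ethanol libraries at the floor, at least 8.90-fold higher. In wild-type day 8 skin the groups overlapped at 0.275 to 1.16 cpm against 0.00 to 0.848 cpm, and the value was −0.34 in cohort A and 3.23 in cohort B. The BLT1 KO estimate of 0.58 ± 1.66 rests on 1 ethanol library at 0.430 cpm.

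Cyp26b1, the second retinoic acid hydroxylase, was by contrast well expressed in control skin (chr6:84571414-84593908, minus strand). At day 1 its groups overlapped, with 69.4, 83.2, 60.3 and 59.3 cpm against 60.5, 69.2, 58.6 and 44.7 cpm (log2 fold change 0.22 ± 0.15). By day 2 it stood at 291, 306 and 136 cpm against 69.9 and 49.7 cpm (2.03 ± 0.47), and at day 5 at 482, 308 and 324 cpm against 72.1, 77.1 and 46.5 cpm (2.51 ± 0.27). Day 8 MC903 libraries read 263, 298, 298, 136 and 198 cpm, all above an ethanol range of 38.6 to 79.3 cpm with a median of 46.1 (2.16 ± 0.16). The wild-type series thus began without a separation at 6 hours and had one at each later time.

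Cyp26b1 was separated in 4 of the 5 injected and knockout groups. PBS skin had 283 and 291 cpm against 57.7, 78.6 and 39.3 cpm (log2 fold change 2.29 ± 0.30), aGr1 skin 328, 402, 355 and 318 cpm against 35.7, 57.5, 61.6 and 52.4 cpm (2.76 ± 0.19), and BLT1 KO skin 368, 294 and 289 cpm against 93.5, 107 and 124.6 cpm (1.55 ± 0.16). Salivary gland RNA was uneven in the aGr1 group, where the value per summed keratinocyte markers was 1.87. TSLPR KO skin at day 8 read 86.1, 111 and 87 cpm with MC903 and 105 and 54 cpm with ethanol (0.25 ± 0.29, or 0.80 without ethanol replicate 1), so its groups overlapped. All 3 of its MC903 libraries were below the lowest MC903 library of wild-type skin at day 8, but the levels were scaled within each comparison and the difference between genotypes was not tested. At day 12 TSLPR KO skin had 150, 114.6, 118.6 and 128.8 cpm against 76.4, 74.3 and 31 cpm (1.08 ± 0.29), and per summed keratinocyte markers that difference turned to −0.17.

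Rarb, a nuclear receptor for retinoic acid, had estimates below 0 in every comparison (chr14:16430839-16819156, minus strand). Its log2 fold change ran from −1.77 to −0.07 over the 9, and its groups were separated in 6. The value nearest 0, that of day 2, became 0.78 without ethanol replicate 2. At day 5 it read 1.09, 1.4 and 2.32 cpm against 4.46, 4.24 and 2.92 cpm (−1.27 ± 0.35), and with aGr1 1.62, 1.80, 2.06 and 0.755 cpm against 3.42, 3.8, 3.34 and 3.11 cpm (−1.13 ± 0.28). BLT1 KO skin had the largest difference, with 2.52, 1.85 and 1.43 cpm against 4.6, 7.73 and 7.44 cpm (−1.77 ± 0.31). Every separated Rarb comparison had the MC903 libraries below the ethanol libraries. Days 1, 2 and 8 of wild-type skin overlapped, at −0.37 ± 0.22, −0.07 ± 0.52 and −0.73 ± 0.24, and the day 8 values were −0.90 in cohort A and −0.54 in cohort B.

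Cyp26a1 and Rarb are shown with their upstream sequence because they are the members long known as direct targets of retinoic acid, and in these skin libraries they lay on opposite sides of the ethanol level. The retinoic acid receptor binds a direct repeat of a 6-base half-site. The half-site AGGTCA, its variant with a T in the middle, AGTTCA, and both with G as the first base (GGGTCA, and with the T, GGTTCA) were searched as direct repeats with 1 to 5 bases between the half-sites on both strands of RefSeq promoters (GRCm38.p6, 250 bases before to 50 after the start). Of the 7 members with an entry, Cyp26a1 and Rarb were the 2 that held such a repeat, in both cases with 5 bases between, an arrangement that stood in 0.0974% of all 32851 promoters (32 promoters). The other spacings searched, of 1, 2, 3 and 4 bases, stood in 0.222%, 0.268%, 0.0396% and 0.0822% of them. Lrat, Stra6, Crabp1, Dhrs9 and Cyp26b1 had none of these letters in the window, and Crabp2 and Aldh1a3 had no entry. Below are the 120 bases before each start, 5′ to 3′ on the gene's strand, with the repeat and its spacer in capitals (chr19:37697688-37697807, plus strand, for Cyp26a1 and chr14:16575477-16575596, minus strand, for Rarb).
Cyp26a1: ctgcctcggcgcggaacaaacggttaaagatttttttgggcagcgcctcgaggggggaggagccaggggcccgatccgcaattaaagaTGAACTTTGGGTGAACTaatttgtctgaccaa
Rarb: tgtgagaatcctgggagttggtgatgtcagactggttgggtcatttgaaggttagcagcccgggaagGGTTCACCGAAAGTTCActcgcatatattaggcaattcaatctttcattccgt
The Cyp26a1 repeat reads on the minus strand and lies 32 to 16 bases before the start, and the Rarb repeat reads on the plus strand of the gene 53 to 37 bases before its start. Both genes carry the match while Cyp26a1 was above and Rarb below ethanol in the separated comparisons, and a match by letters is a description, not a shown binding site.

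**Figure D3:**
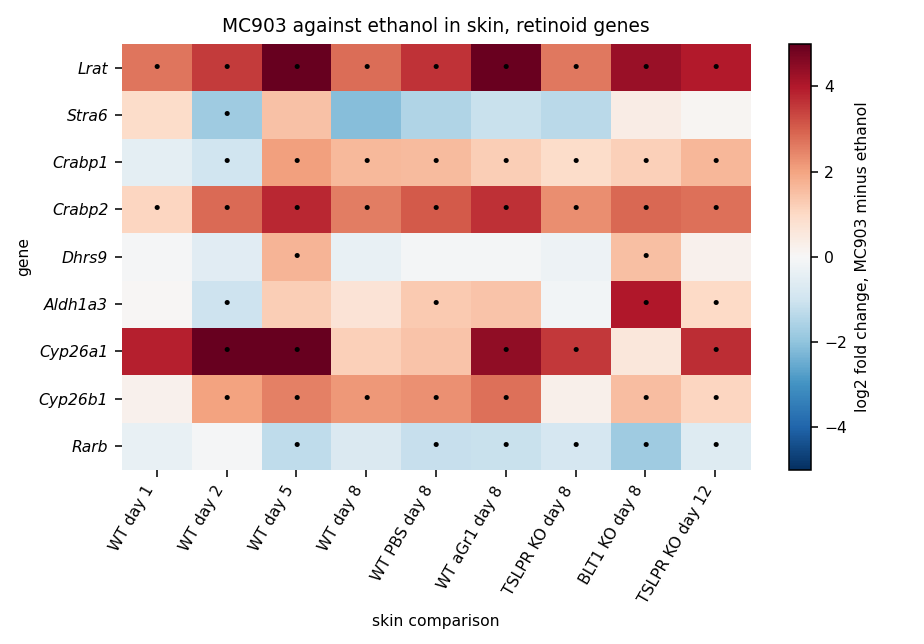
Log2 fold change of each member (rows) in each of the 9 skin comparisons (columns), MC903 minus ethanol, with colours that saturate at ±5; a dot marks groups that do not overlap. Lrat and Crabp2 have a dot in every column, Rarb is below 0 in every column, and Cyp26a1 values beside ethanol libraries at the floor depend on the prior count.

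Counted by comparison, 7 of 9 members were separated at day 2, at day 5, in BLT1 KO skin and in TSLPR KO skin at day 12, with 4 higher and 3 lower at day 2 and 6 higher and 1 lower in each of the others. Since the members were chosen on these contrasts, the shares of all genes are given only as background. At day 1, 2 members were higher and 0 lower, where 9.35% of all genes tested were separated higher and 10% lower. The shares of all genes at day 2 were 10.4% higher and 11.5% lower, and at day 5 they were 18.8% and 17.5%. Wild-type day 8 had 4 higher and 0 lower (7.43% and 4.79%), PBS 5 and 1 (21.6% and 15.8%), and aGr1 5 and 1 (15.9% and 16.1%). TSLPR KO skin at day 8 had 4 and 1 (16.5% and 16.3%), and the shares of all genes were 22.2% and 21.8% in BLT1 KO skin and 13% and 10.5% in TSLPR KO skin at day 12. The median log2 fold change over the 9 members was 0.22 at day 1, −0.07 at day 2 and 2.07 at day 5, against medians of 0.00, 0.09 and −0.03 over all genes. At day 2 the members lay on both sides, with Lrat, Crabp2, Cyp26a1 and Cyp26b1 higher and Stra6, Crabp1 and Aldh1a3 lower.

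Over the 61 skin libraries, each centred on its comparison, Lrat and Crabp2 were the most alike of the members (r = 0.95), followed by Crabp2 with Cyp26b1 (r = 0.91) and Lrat with Cyp26b1 (r = 0.84). Rarb ran against them, at r = −0.76 with Crabp2 and −0.74 with Lrat. Stra6 and Dhrs9 formed another like pair (r = 0.68). These are descriptions over libraries that share treatment and composition. Outside the list, the genes most like Lrat were Klk13 and Fhl2 (r = 0.98 for both) and those most like Crabp2 were Klk6 and Gm11597 (0.98 for both). Stra6 was most like Hoxc13 (0.93), itself one of the hair follicle markers, and Ephb1 (0.92), and Dhrs9 was most like Flrt3 and the keratin gene Krt75 (0.89 for both). Cyp26b1 was most like Pld1 and Duox1 (0.95 for both), Crabp1 most like Lce1k and Kctd4 (0.90 for both), and Aldh1a3 most like Gjb2 (0.90) and Uox (0.89). The values for Rarb were lower, with Skint11 and Abca5 at 0.80, and so were those for Cyp26a1, with Tslp and the pseudogene Vmn1r-ps128 at 0.79.

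Per kilobase of merged exon, which allows levels to be compared between genes, the median of the 30 ethanol skin libraries put the members in the order Crabp2 (37.4 cpm per kb, range 16.7 to 64.7), Cyp26b1 (11), Crabp1 (7.55), Aldh1a3 (6.92), Dhrs9 (4.13), Stra6 (3.5), Lrat (2.32), Rarb (0.790) and Cyp26a1 (0.0224). The range of every gene overlapped that of its neighbour in this order. At day 5 the MC903 means placed Crabp2 first at 450 cpm per kb (403 to 530), Cyp26b1 next at 69.4 and Lrat after them at 49.7. Lrat had ranked 6 of 9 in the day 5 ethanol libraries at a mean of 1.42 cpm per kb. In ethanol TG 7 of 9 members had a lower median than in skin, among them Aldh1a3 at 2.84 and Crabp2 at 2.16 cpm per kb. The exceptions were Rarb, at 1.82 cpm per kb against 0.790 in skin, and Cyp26a1, near the floor at 0.0514 against 0.0224 in skin. Ethanol SC had 4.57 cpm per kb of Crabp1, 2.18 of Crabp2 and 1.75 of Rarb. Dhrs9 and Cyp26a1 were near the floor in both nervous tissues, at or under 3 counts in 17 and 16 of 27 TG libraries and in 10 of 13 SC libraries for each.

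**Figure D4:**
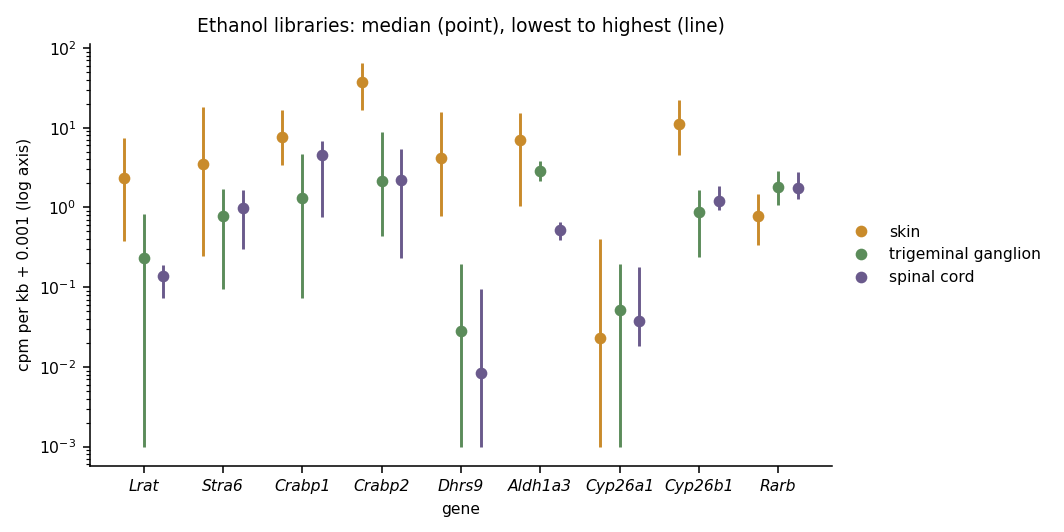
Level of each member in ethanol libraries of skin (30), TG (27) and SC (13), in cpm per kilobase of merged exon on a log axis; points are medians and lines run from the lowest to the highest library. Crabp2 and Cyp26b1 lead in skin, and Dhrs9 and Cyp26a1 lie near the floor in TG and SC.

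Outside the skin the members could be tested, and few passed. By edgeR's quasi-likelihood test, adjusted over all genes by the method of Benjamini and Hochberg, at an adjusted p under 0.1 in TG, 2 calls were made in 8 comparisons. Aldh1a3 rose in TG of PBS-injected mice, from 10.2, 10.8 and 10.3 cpm to 16.6, 15.6, 11.5 and 12.8 cpm (log2 fold change 0.44 ± 0.12, edgeR adjusted p = 0.0919), where 1.91% of all genes were called higher. The groups did not overlap, but the call was made in 7 of 12 alternatives only, with an adjusted p between 0.00787 and 0.283. Crabp1 fell in TG of aGr1-injected mice, from 2.69, 1.89, 3.74 and 3.07 cpm to 1.11, 1.33, 1.28 and 1.4 cpm (−1.15 ± 0.23, edgeR adjusted p = 0.0333), where 1.01% of all genes were called lower. That call was made in 12 of 13 alternatives (adjusted p between 0.00230 and 0.144), and its direction was the opposite of the Crabp1 order in aGr1 skin.

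In the other 6 TG comparisons 0 members were called by edgeR, with 0.0% of all genes called at days 1 and 2 and in TSLPR KO TG at day 8, 0.00823% at day 5, 0.16% at day 8 and 0.304% in TSLPR KO TG at day 12. Members with an unadjusted p under 0.05 numbered 1 at day 1, 1 at day 2, 3 at day 5, 0 at day 8, 0 in TSLPR KO TG at day 8 and 2 at day 12. The smallest p at day 1 belonged to Crabp2, at 20.1, 10.3, 5.52 and 3.63 cpm against 2.84, 5.02, 2.33 and 1.18 cpm (log2 fold change 1.80, edgeR adjusted p = 0.574). These groups overlapped, summed keratinocyte markers reached 339 cpm in day 1 MC903 TG, and their part was not tested. At day 2 the smallest p was for Lrat (−1.37, edgeR adjusted p = 0.725), at days 5 and 8 for Crabp2 (−0.95 and −0.54, edgeR adjusted p = 1.0 and 0.789). In TSLPR KO TG it was for Dhrs9 at day 8, which was at 0 in both ethanol libraries and 1 MC903 library (edgeR adjusted p = 0.618), and for Stra6 at day 12 (0.53, edgeR adjusted p = 0.479).

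In SC, at an adjusted p under 0.05, Stra6 and Rarb were called lower in wild-type mice and Lrat in aGr1-injected mice. Stra6 fell from 3.36, 6.91, 9.21, 8.97 and 5.50 cpm to 2.28, 4.51, 2.69 and 1.51 cpm (log2 fold change −1.28 ± 0.33, edgeR adjusted p = 0.0199), with 1 MC903 library above the lowest ethanol library. Rarb fell by less, from 15.9, 14.1, 12.6, 13.1 and 13.5 cpm to 11.6, 11.1, 9.84 and 7.85 cpm (−0.45 ± 0.13, edgeR adjusted p = 0.0358), with no overlap. Of all genes 7.14% were called lower in that comparison, and the Stra6 and Rarb calls were made in 10 and 6 of 14 alternatives (adjusted p up to 0.0764 and 0.0781). A fit blocked on replicate number left 1 of the 2 calls, and leaving out 1 library gave 0 to 5 calls.

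Lrat in SC of aGr1-injected mice fell from a range of 0.648 to 0.942 cpm (median 0.792, 6 ethanol libraries) to 0.219 to 0.686 cpm (median 0.420, 8 MC903 libraries). The log2 fold change was −0.84 ± 0.23 (edgeR adjusted p = 0.0210), 6.79% of all genes were called lower, and the libraries held 5 to 28 Lrat counts each. It was called in 18 of 19 alternatives, with an adjusted p between 0.0110 and 0.0562. PBS-injected SC gave 0 calls by edgeR among members and 0.0% among all genes, with 1 member at an unadjusted p under 0.05, Lrat (−1.71, edgeR adjusted p = 0.501). The SC direction of Lrat was the opposite of its order in skin.

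Control skin was compared between injections and between genotypes to see whether the ethanol baseline differed at day 8 without MC903. Between ethanol skin of aGr1- and PBS-injected mice 0 of 9 members were called by edgeR, with 0.147% of all genes called and 0 members at an unadjusted p under 0.05. The smallest p was for Lrat, at 6.12, 2.69, 10.8 and 5.86 cpm with aGr1 against 18.1, 4.69 and 19.6 cpm with PBS (log2 difference −1.14, edgeR adjusted p = 0.317). These aGr1 libraries held much salivary gland RNA, by the range given below with Rbp4, and its part was not tested. Between ethanol skin of TSLPR KO and wild-type mice at day 8, using wild-type cohort B, 0 members were called by edgeR, with 0.0207% of all genes called and 1 member at an unadjusted p under 0.05. That was Cyp26b1, at 100 and 53.7 cpm in the knockout against 45.8, 44.5 and 40.3 cpm in wild-type skin (0.82, edgeR adjusted p = 0.787). Both comparisons were small, and a missed threshold does not show equal baselines.

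The other genes of the pathway were followed through a list of 53, of which 49 to 51 passed the count filter in each skin comparison and 43 were called in at least 1 of the 9. As the list was chosen with earlier results known, the shares of all genes beside its counts are background only. At day 1, 1 gene was called higher and 15 lower of 49 by edgeR at an adjusted p under 0.05, where 5.51% and 7.47% of all genes were called. Those lower included 8 of 19 retinol and retinal oxidoreductases, among them Sdr16c5 (log2 fold change −0.98 ± 0.12, adjusted p = 0.00181) and Adh7 (−1.04 ± 0.15, adjusted p = 0.00361). The gene higher was Nrip1, a nuclear receptor corepressor that responds to retinoic acid (0.76 ± 0.09, adjusted p = 0.00127). Of the 7 tested genes known to respond to retinoic acid it was the 1 called higher, and 3 were called lower, among them Rarres1 (−0.99 ± 0.12, adjusted p = 0.00157). Without the 2 ethanol libraries that had salivary gland markers over 1000 cpm, an alternative chosen after seeing the data, 8 genes were called in place of 16. Day 2 gave 0 of 50 by edgeR, with 0.0% of all genes called in this group of 5 libraries and 1 call by DESeq2.

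By day 5 carriers of retinoids were among the genes on the higher side. Rbp2, a cellular retinol binding protein, rose from a mean of 2.65 ± 0.44 to 84.3 ± 25 cpm (SD, n = 3 each; log2 fold change 4.99 ± 0.29, edgeR adjusted p = 8.57e-05), and Fabp5, a fatty acid binding protein that can deliver retinoic acid, rose by 3.29 ± 0.33 (edgeR adjusted p = 0.000875). The list had 4 genes higher and 11 lower of 50, against 8.15% and 6.78% of all genes. Among those lower were Ces1d, a carboxylesterase with retinyl ester hydrolase activity (−2.15 ± 0.32), Ttr, which carries retinol in blood with its binding protein (−2.69 ± 0.41), and Aldh1a1, which makes retinoic acid as Aldh1a3 does (−1.45 ± 0.24). At day 8 the counts were 10 higher and 11 lower of 51 (12.2% and 11.2% of all genes), led by Rbp2 (4.38 ± 0.17, edgeR adjusted p = 4.86e-09) and, among those lower, by the lipoprotein lipase gene Lpl (−1.02 ± 0.13). Dgat1, which can also esterify retinol, rose at day 8 by 1.24 ± 0.14 (edgeR adjusted p = 3.48e-05).

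**Figure D5:**
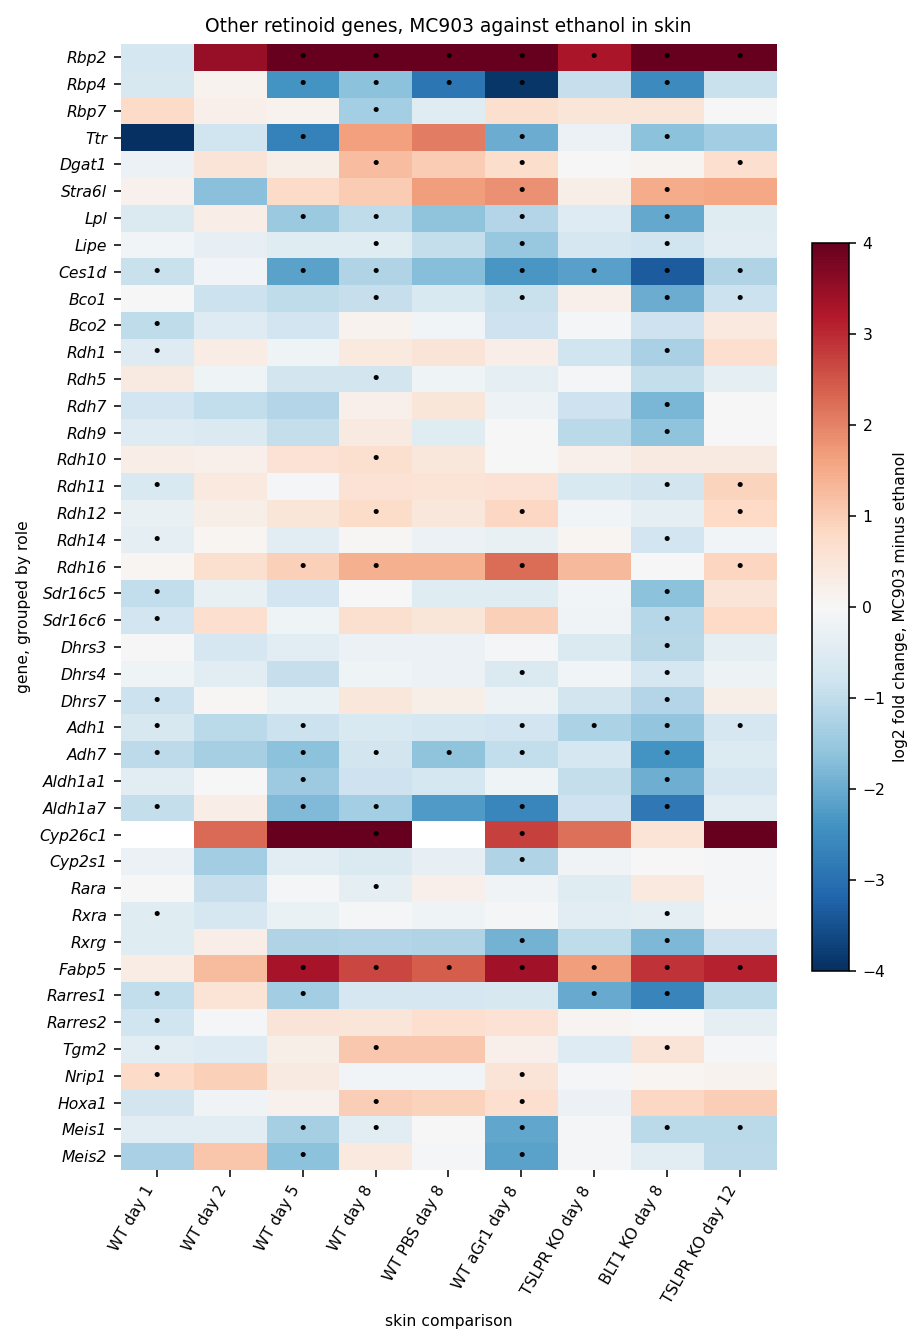
Log2 fold change, MC903 minus ethanol, of 42 other pathway genes called in at least 1 skin comparison (rows) in each of the 9 comparisons (columns); a dot marks an edgeR call at an adjusted p under 0.05, colours saturate at ±4, and white marks a gene not tested. Rbp2 and Fabp5 are called higher in 7 comparisons each and Ces1d lower in 7.

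The carriers Rbp2 and Fabp5 were also called higher in each of the remaining 5 comparisons. With PBS the list had 3 higher and 2 lower of 50 (3.26% and 0.721% of all genes), and with aGr1 10 higher and 14 lower of 50 (15.1% and 17.5%). In aGr1 skin Rbp4, the blood retinol carrier, fell from 22.8 ± 6.36 to 1.54 ± 0.31 cpm (SD, n = 4 each; log2 fold change −3.89 ± 0.27, edgeR adjusted p = 2.00e-05), where the 4 ethanol libraries also had salivary gland sums of 40617 to 401799 cpm against 18 to 9727 cpm with MC903. The part of that tissue in the Rbp4 difference was not tested. TSLPR KO skin had 3 higher and 3 lower of 49 at day 8 (1.3% and 1.14% of all genes) and 7 higher and 4 lower of 51 at day 12 (5.41% and 4.62%), with Rbp2 rising by 3.27 ± 0.24 and 4.34 ± 0.23.

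BLT1 KO skin had the longest list of lower genes, 24 of 49 with 5 higher, where 14.6% and 14.1% of all genes were called. They included 12 of 19 oxidoreductases, with Adh7 at −2.39 ± 0.13 and, outside that class, Ces1d at −3.32 ± 0.11 (edgeR adjusted p = 2.37e-06), Rarres1, a retinoic acid-responsive gene, at −2.64 ± 0.14 and Aldh1a1 at −1.95 ± 0.13, all on the log2 scale. Skeletal muscle markers moved with this comparison, at 2769 to 7729 cpm with MC903 and 19184 to 31657 cpm with ethanol, and their part was not tested. Over the 9 comparisons Adh1 and Adh7 were called lower in 6, Rbp4, Aldh1a7 and Meis1 in 5, and Lpl, Bco1 and Rarres1 in 4, while Rdh16 was called higher in 4 and Rdh12 and Dgat1 in 3. The 10 genes never called were Rdh13, Adh4, Adh5, Retsat, Aldh1a2, Aldh8a1, Rarg, Rxrb, Hoxb1 and Cdx1, of which Cdx1 was tested in none of the 9 comparisons, Adh4 in 1, Hoxb1 in 2 and Aldh8a1 in 7. Rarg, in that group, encodes the main retinoic acid receptor of epidermis.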

How the data were processed

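The deposited files hold raw counts: the authors mapped poly(A)-selected single-end reads of 50 bases to mm10 with Bowtie2 and TopHat and counted them per Ensembl gene with htseq-count, without normalization. The annotation release and strand setting were not given in the sources used here, so antisense overlaps could not be separated. 5 tally lines were left out of library sizes (reads on no gene were 6.15 to 21.5% of tallied reads). 45143 of 46078 genes matched GENCODE M21.

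From these counts TMM-normalized cpm, edgeR 4.0.16 quasi-likelihood tests (R 4.3.3; genes with at least 10 counts over the libraries of a comparison; Benjamini-Hochberg adjustment) and DESeq2 1.42.0 alternatives were computed. DESeq, the tool the study names, was not run. MC903 was compared with the ethanol group of the same tissue, day, genotype and injection, with a cohort term for wild-type uninjected day 8. Thresholds were 0.05 in skin and SC and 0.1 in TG, as in the study. The fits were tested on simulated counts. Relations to marker sums and gene likeness used log2(cpm + 0.5).

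Members, lists and tests were chosen with earlier results of these data known. All members are named, elsewhere each member past the threshold or else that with the smallest p, of the pathway list at most 4 called genes each way, ranked by p, whose groups do not overlap (Dgat1 at day 8 among them), and the 2 genes most like each member with at least 1 cpm. Genes counted by how often they were called were named after their values were seen.

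Same-numbered libraries deviated together, with every pair above r = 0.1, in TG of wild-type mice at day 5 (lowest r = 0.11) and of TSLPR KO mice at day 12 (0.19). The 2 pairs of wild-type skin at day 2 were also above it (lowest r = 0.17), and a replicate block there gave 3 pathway calls in place of 0. In each of these the pairing comes from the data alone, and in the TG comparisons a replicate block changed no call. 12 marker lists were summed. 1 gene of the pathway list is counted in its totals and is not reported here by itself. Alternatives were other normalizations, DESeq2, count filters, cohorts, the replicate block and leaving out each library.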

Additional observations from a re-analysis of the deposited data

Results flagged for a closer look

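Of 73 groups of 4 to 10 libraries tested for a library far from the others, 6 held one, and chance alone gives about 1 in 20. In day 1 ethanol skin, replicate 1 stood apart for Lrat (21.6 cpm), Dhrs9 (51.1 cpm) and Cyp26a1 (0.0464 cpm, the others at 0). In wild-type day 8 skin the libraries apart were cohort B replicate 1 of MC903 for Cyp26a1 (1.16 cpm), cohort A replicate 2 of ethanol for Cyp26a1 (0.848 cpm) and a cohort A ethanol library numbered 3 for Cyp26b1 (79.3 cpm). The Cyp26b1 library was still below every MC903 library of its comparison.

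Directions differed between comparisons for 4 genes, and these differences were not tested. Crabp1 was lower in every MC903 library at day 2 (log2 fold change −0.98) and higher in every MC903 library of 7 later comparisons. Aldh1a3 was likewise lower at day 2 (−1.03) and higher in 3 other comparisons. Rdh11, a retinal reductase, was called lower at day 1 (−0.59) and in BLT1 KO skin (−0.74) and higher in TSLPR KO skin at day 12 (0.90). Tgm2, a transglutaminase induced by retinoic acid, was called lower at day 1 (−0.46) and higher in BLT1 KO skin (0.52), as it was in wild-type skin at day 8.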

How the results depend on the processing

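The skin differences of Lrat and Crabp2 kept their sign under every alternative run. Over the 9 members and 9 comparisons, DESeq2 moved 2 of 81 log2 fold changes by more than the replicate spread and changed no sign, and leaving out 1 library moved 36 of 549 and changed the sign of 18. Dividing by summed keratinocyte markers, a scaling chosen after seeing the data, moved 57 of 80 and changed the sign of 11. Of these, 2 were separated values, those of Aldh1a3 (−0.50) and Cyp26b1 (−0.17) in TSLPR KO skin at day 12, and the cause was not tested. Removing ethanol replicate 1 from BLT1 KO skin took Cyp26a1 from 0.58 to 6.58, a fitted value against libraries at 0.

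Pathway calls moved by more than 1.5 times in these cases. DESeq2 gave 1 in place of 0 at day 2, 11 in place of 5 with PBS and 18 in place of 11 in TSLPR KO skin at day 12. The stricter filterByExpr gave 3 in place of 6 in TSLPR KO skin at day 8, and removing the salivary gland libraries gave 8 in place of 16 at day 1. Under a replicate block day 2 went from 0 to 3 calls, where the 2 pairs of same-numbered libraries deviated together (lowest r = 0.17) but the labels state no pairing. TSLPR KO day 12 went from 11 to 2 calls, where numbers were not shown to pair libraries. The block also gave 2 member calls in place of 1 in PBS TG, 1 in place of 2 in wild-type SC and 2 in place of 0 between ethanol groups of aGr1 and PBS. In PBS SC same-numbered libraries deviated in opposite directions (r = −0.31), and the crossed pairing, also added after seeing the data, gave 1 member call in place of 0 and 955 in place of 0 over all genes. The 2 pairs of PBS skin at day 8 deviated in opposite directions as well (r = −0.53 and −0.41), and no crossed pairing was fitted there.

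Leaving out 1 library gave 10 to 23 pathway calls at day 1, 0 to 1 at day 2, 9 to 20 at day 5, 16 to 22 at day 8, 1 to 10 with PBS, 18 to 24 with aGr1, 1 to 8 in TSLPR KO skin at day 8, 24 to 30 in BLT1 KO skin and 5 to 12 in TSLPR KO skin at day 12. Member calls ranged from 0 to 1 in TG at day 2, with PBS and with aGr1, from 0 to 5 in SC of wild-type mice, 0 to 1 with PBS and 0 to 2 with aGr1, and were 0 to 0 in the other TG and ethanol comparisons. Libraries whose removal moved a skin count by over 1.5 times were MC903 2 and ethanol 3 at day 1 (10 calls each), MC903 3 at day 2 (1), MC903 1 and 2 and ethanol 1 and 2 at day 5 (9 each), each of the 5 PBS libraries (1 without either MC903 library or ethanol 1, 10 without ethanol 2, 8 without ethanol 3), MC903 1, 2 and 3 and ethanol 1 in TSLPR KO skin at day 8 (1, 2, 1 and 3), and MC903 1, 2 and 4 and ethanol 1 at day 12 (5, 7, 5 and 7). For member calls they were ethanol 2 in TG at day 2 (1), MC903 1 and 2 and each ethanol library in PBS TG (0), ethanol 3 in aGr1 TG (0), and, in wild-type SC, MC903 4 and ethanol 3 and 4 (0), MC903 1 and 2 and ethanol 2 and 5 (1) and ethanol 1 (5). In PBS SC they were MC903 2 and ethanol 1 (1), and in aGr1 SC ethanol 5 (0) and MC903 6 and ethanol 3 and 4 (2). Counting depth limits Cyp26a1 in skin and Dhrs9 and Cyp26a1 in TG and SC, where most ethanol libraries held 3 counts or fewer.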
